A study of Mus musculus with 7 samples.

Results

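The 52 genes described here encode homeodomain transcription factors outside the Hox clusters: the LIM, distal-less, sine oculis, Otx and Emx, Nkx, Engrailed and Gbx, Msx, Iroquois, Meis and Pbx, paired-like, Barhl and Vax, and Cdx and Evx families. They were chosen by name from 21887 protein-coding genes of the RefSeq annotation, and a region was assigned to a gene when it overlapped the gene body or the 1 kb on either side. This gave 140 of the 133337 regions enriched for 5-methylcytosine (5mC), and no region was shared between these genes. Regions came from MeDIP-seq, in which an antibody pulls down DNA fragments carrying 5mC before sequencing. Hippocampal neurons of C57BL/6J mouse embryos at E18.5 were grown in culture for 11 days, with the antimitotic drug AraC added at medium changes. The study compared 3 untreated libraries with 3 libraries from cultures given 55 mM KCl, which depolarises neurons, for 4 h, to look for DNA methylation targets of neuronal activity. A pooled input library was not analysed here. The labels leave unstated what separates the 3 replicates, so every p-value measures only the spread between libraries, which may be technical.

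Homeobox genes set the identity of body regions and cell types in the embryo, and most are silent outside the tissues they pattern. Their promoters often lie in CpG islands, stretches rich in CG dinucleotides that usually lack 5mC and that, at silent developmental genes, are commonly bound by Polycomb complexes. In the forebrain, Emx1, Emx2 and Lhx2 are known for patterning cortex and hippocampus, Dlx genes and Lhx6 for inhibitory interneurons, and Meis and Pbx3 proteins, of the TALE class, act as partners of other homeodomain factors.

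The height of a region in a library is that of its highest summit as deposited. It is a relative measure of enrichment and not a percentage of methylated cytosines, and it depends on how many CG sites a fragment holds. Libraries differed widely in how much was called, from 34834 intervals in KCl replicate 3 to 93470 in KCl replicate 1, and the number of reads behind them is unknown. KCl replicate 3 stood apart from the other libraries, calling 25.7% of all regions. Because MeDIP shows 5mC and not expression, the labelled cell type could not be checked against markers. The neuronal marker genes carried regions in 10 of 10, those of astrocytes in 6 of 6, of oligodendrocytes in 4 of 6, of microglia in 5 of 6, and of endothelial and mesenchymal cells in 5 of 5. Cells of other types in the cultures and the neurons themselves cannot be told apart in these data.

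Promoters are shown for 4 genes, on RefSeq build GRCm38.p6 and its minus strand except for En1, from 250 bases before to 50 bases after the annotated start, with every CG in capitals. Barhl1 (chr2:28916619-28916918) is the 1 promoter that a region covered, and its relative Barhl2 (chr5:106458117-106458416), a retinal and spinal cord regulator, had no region at all. This Barhl1 entry lies inside the annotated gene, whose 5′ end is at chr2:28917984, and the region stops short of that end. Msx1 (chr5:37824536-37824835), a craniofacial and tooth regulator, and En1 (chr1:120602237-120602536, plus strand), a midbrain and hindbrain regulator, had no region at the start and 1 region further into the gene in all 6 libraries.
Barhl1: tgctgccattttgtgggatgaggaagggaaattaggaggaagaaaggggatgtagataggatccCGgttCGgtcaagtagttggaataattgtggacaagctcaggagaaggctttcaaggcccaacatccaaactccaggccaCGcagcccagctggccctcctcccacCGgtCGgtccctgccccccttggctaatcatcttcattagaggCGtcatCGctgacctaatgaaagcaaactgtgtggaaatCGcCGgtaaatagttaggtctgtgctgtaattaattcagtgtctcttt
Barhl2: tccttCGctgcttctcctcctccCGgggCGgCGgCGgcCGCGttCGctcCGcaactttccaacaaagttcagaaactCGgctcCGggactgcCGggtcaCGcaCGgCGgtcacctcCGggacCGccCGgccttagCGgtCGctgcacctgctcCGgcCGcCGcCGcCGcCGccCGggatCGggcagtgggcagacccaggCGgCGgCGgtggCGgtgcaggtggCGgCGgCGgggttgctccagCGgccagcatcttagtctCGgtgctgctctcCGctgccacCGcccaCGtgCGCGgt
Msx1: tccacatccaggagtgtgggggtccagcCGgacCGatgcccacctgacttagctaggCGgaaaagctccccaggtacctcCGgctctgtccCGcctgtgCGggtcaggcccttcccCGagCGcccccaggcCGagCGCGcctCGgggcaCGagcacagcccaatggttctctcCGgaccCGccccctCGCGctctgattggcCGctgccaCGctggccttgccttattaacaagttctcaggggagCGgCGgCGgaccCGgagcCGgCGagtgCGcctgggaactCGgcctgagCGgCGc
En1: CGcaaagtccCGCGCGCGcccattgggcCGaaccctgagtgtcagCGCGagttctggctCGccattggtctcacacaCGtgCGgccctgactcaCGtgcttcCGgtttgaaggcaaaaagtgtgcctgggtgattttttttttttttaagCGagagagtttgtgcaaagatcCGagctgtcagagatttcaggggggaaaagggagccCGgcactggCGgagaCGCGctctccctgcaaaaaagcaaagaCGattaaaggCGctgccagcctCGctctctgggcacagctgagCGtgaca
Of these 4 sequences, Barhl1 held the fewest CG sites, with 9, against 23 in En1, 29 in Msx1 and 42 in Barhl2. Promoters not shown held fewer still, with 4 in Lhx8 and 6 each in Lhx9 and Otx2, and no region covered them. The ratio of observed to expected CG was 0.476 in Barhl1 and 1.03 in Barhl2, and GC content was 50.3% and 73.7%. A promoter entry was found for 36 of the 52 genes. Their median was 20 CG sites in 300 bases, against 13 for the 17492 protein-coding genes with an entry. An observed to expected ratio of at least 0.6 with a GC content of at least 55% was taken as CpG-rich, and 22 of the 36 promoters (61.1%) met it, against 41.3% of all.

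Few of the 36 genes with a promoter entry had called 5mC near the annotated start, while the DNA 1 to 3 kb downstream often carried it. The 16 genes without an entry have no known strand here and are left out. Otx1 and Dlx3 among them had a region within 1 kb of both gene ends, and the others had one at 1 end or at neither. A region lay within 1 kb of the start in 1 of 36 genes (2.78%), against 10.7% of protein-coding genes, and in 0 of the 22 genes with a CpG-rich promoter, against 7.44% of the 7219 such genes overall. Counting only regions called in all 6 libraries, the shares within 1 kb were 2.78% (Barhl1) here and 2.99% of protein-coding genes. Between 1 and 3 kb downstream of the start, 16 of 36 genes (44.4%) had a region, against 14.7% of protein-coding genes. The same distance upstream held a region in 8 genes (22.2%), against 11.7%. Counting both sides, 19 genes (52.8%) had a region at 1 to 3 kb, against 23.9%. Among genes with a CpG-rich promoter the downstream share was 36.4% (8 of 22) here and 15.3% over all 7219. These counts use the promoter entry nearest the 5′ end of the gene. In some genes, among them Barhl1, Six3, Nkx2-2, Lhx9 and Lhx4, that entry lies more than 1 kb, and up to several kilobases, inside the annotated gene. Distances from the start there are not distances from the 5′ end of the gene. With any entry of a gene, an alternative added after the data were seen, 3 genes (Lhx3, Lhx6 and Barhl1) had a region within 1 kb, against 12.2% of protein-coding genes.

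**Figure D1:**
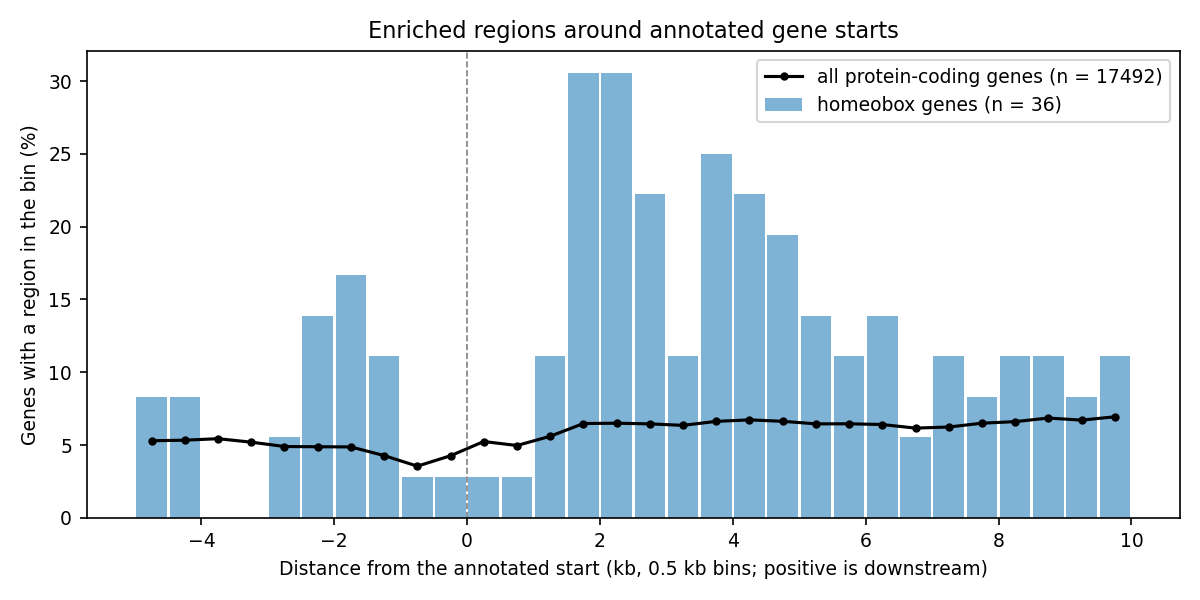
Share of genes with an enriched region in each 0.5 kb bin (y axis, %) by distance from the annotated start (x axis, kb, positive downstream). Bars are the 36 homeobox genes with a promoter entry and the line is 17492 protein-coding genes. The bars at 1.5 to 2.5 kb reach 30.6%, while the bins within 1 kb of the start stand at 2.78%.

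The 16 genes with a region 1 to 3 kb downstream were Lhx3, Lhx6, Lhx9, Dlx2, Six3, Emx2, Nkx2-2, Nkx6-2, En1, Msx1, Irx3, Meis1, Pitx3, Barhl1, Vax1 and Gsc. In 8 of them (22.2% of 36, against 4.16% of protein-coding genes) a region there was called in all 6 libraries: Six3, Nkx2-2, Nkx6-2, En1, Msx1, Irx3, Vax1 and Gsc. In 13 (36.1%, against 11.3%) it was called in at least 2 libraries. Highest were the bins from 1.5 to 2 kb and from 2 to 2.5 kb, each with 11 of 36 genes (30.6%), against 6.48% and 6.50% of protein-coding genes. No region lay within 3 kb of the start in 17 of the 36 genes, among them Lhx1, Dlx1, Otx2, Nkx2-1, Nkx6-1 and Barhl2, and the share of protein-coding genes without one was 71.4%. The zones of 1 to 3 kb were chosen after this profile was seen, so their shares are a description with no test of the difference from other genes. A short gene such as Gsc ends within the zone, and the shares were not matched for CG density or gene length beyond the promoter.

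Among other homeobox genes the profile was not the same. Of 65 homeobox genes outside this set with a promoter entry, 11 (16.9%) had a region within 1 kb of the start and 16 (24.6%) had one 1 to 3 kb downstream. Of 22 Hox genes 0 and 2 did, and of 7 Pax genes 4 and 2. The differences between these sets were not tested.

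Over whole gene windows, 36 of the 52 genes (69.2%) carried at least 1 region, close to the 65.3% of protein-coding genes. A region called in all 6 libraries was present in 16 (30.8%), against 35% of protein-coding genes. The genes are short, with a median length of 7224 bp against 17169 bp, and length sets how many regions a gene can hold. Below 10 kb, 18 of 31 (58.1%) had a region, against 36.1% of protein-coding genes of that length. From 10 to 50 kb the share was 14 of 17 (82.4%), against 74.7%, and of 50 kb or more 4 of 4, against 95.1%. Regions numbered 1.15 per 10 kb of window, against 0.667 over protein-coding genes, and covered 5.03% of the windows, against 2.62%. Below 10 kb the numbers were 1.74 and 0.946 per 10 kb. Counting only regions called in all 6 libraries, they were 0.206 and 0.150 per 10 kb over all lengths. By length these were 0.296 and 0.256 below 10 kb, 0.189 and 0.209 from 10 to 50 kb, and 0.181 and 0.127 at 50 kb or more. From 10 to 50 kb the homeobox genes were thus the lower of the pair.

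No region was found in 16 genes: Lhx1, Lhx2, Lhx5, Dlx1, Six6, Otx2, Nkx2-1, Nkx6-1, Irx1, Irx2, Irx5, Pitx1, Barhl2, Cdx2, Evx1 and Evx2. They include Lhx2 and Otx2, which are needed for forebrain formation, and Nkx2-1, which patterns the ventral forebrain. A further 12 genes had 1 region, 20 had 2 to 6, and 4 had 7 or more: Pbx3, Meis1, Barhl1 and Meis2. In 20 of the 36 genes with regions, none was called in all 6 libraries (55.6%, against 46.4% of protein-coding genes with regions).

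**Figure D2:**
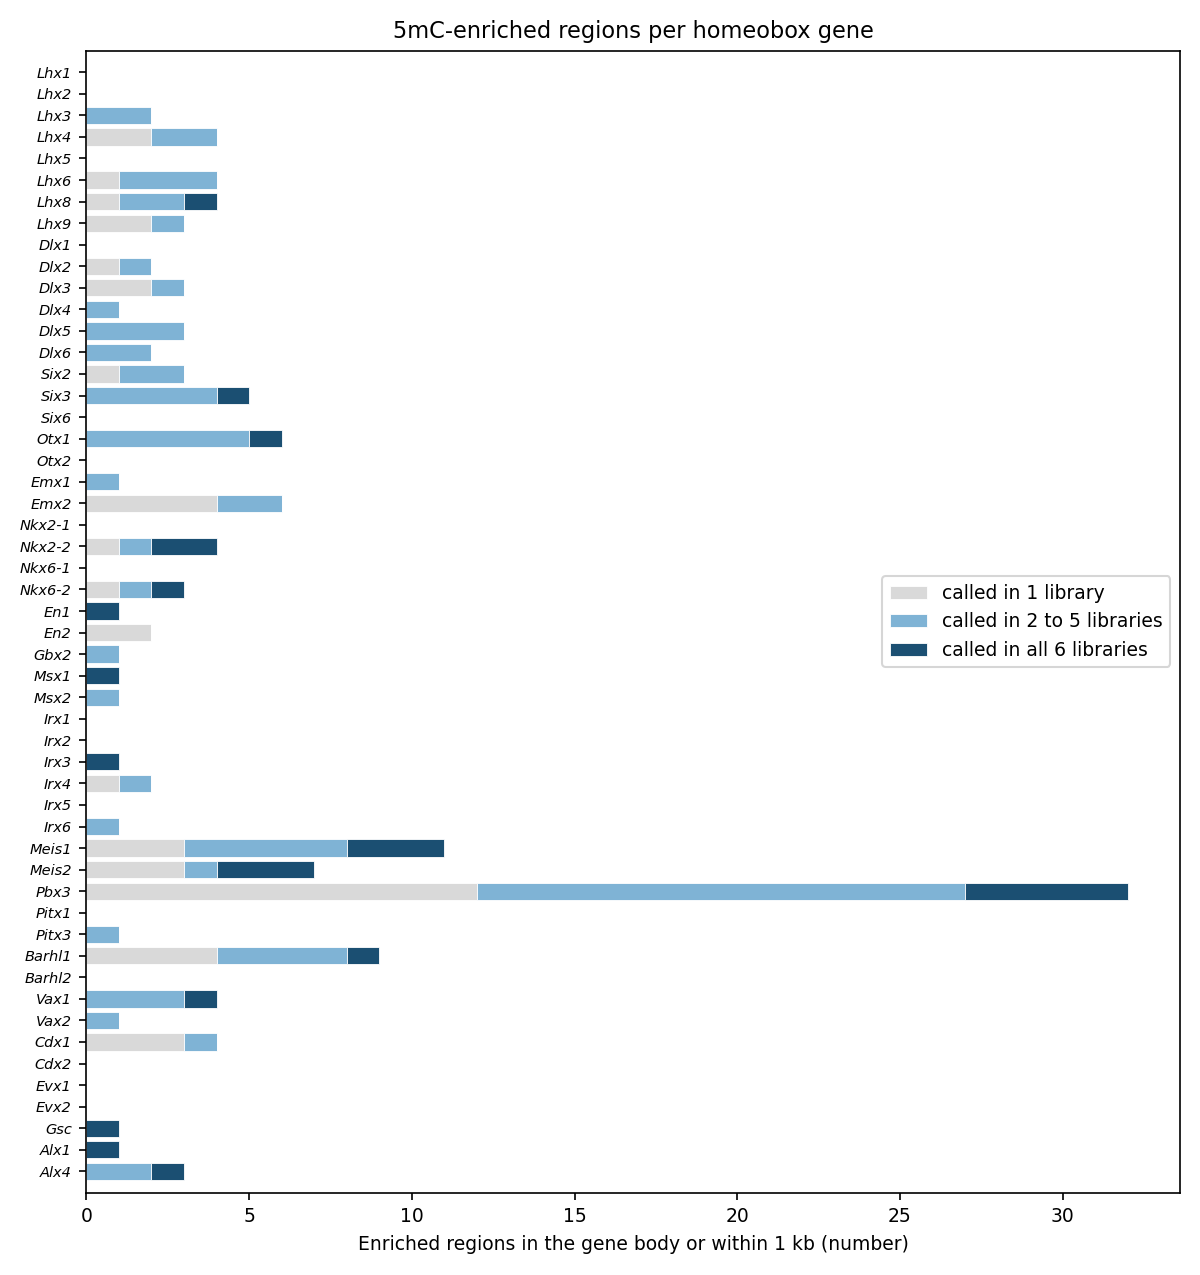
Number of enriched regions per gene (x axis) for all 52 homeobox genes (y axis, by family), split by how many libraries called the region. Pbx3 has 32 regions, the next is Meis1 with 11, and 16 genes have none.

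The 3 long TALE genes were among the 4 genes with the most regions. Pbx3, of 200589 bp, had 32, Meis1, of 139224 bp, had 11 and Meis2, of 206274 bp, had 7. Barhl1, with 9, lay between the Meis genes. Together Pbx3, Meis1 and Meis2 held 50 regions, 35.7% of the 140, on 45.5% of the window length. Their density of 0.906 per 10 kb was below the 1.15 of the whole set. With the Iroquois genes, which are also of the TALE class, the density was 0.896 over 9 genes. Meis1 and Meis2 had 3 regions each that were called in all 6 libraries, and Pbx3 had 5.

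Per length, the densest genes were Barhl1 with 7.31 regions per 10 kb, Emx2 with 6.92, Otx1 with 6.75, Nkx6-2 with 5.53 and Vax1 with 5.05. Otx1, a forebrain and sense organ regulator, had 6 regions over 51.8% of its 8888 bp window (4603 bp). That share lay at the 99.97th percentile of protein-coding genes. Barhl1, known from cerebellar granule neurons and hair cells of the inner ear, had 9 regions over 38.1% of its window, at the 99.85th percentile. Emx2 had 6 regions, 4 of them called in a single library each, so its density rests largely on calls that other libraries did not repeat. In 5 of the 52 genes the covered share was at or above the 99th percentile of protein-coding genes, and in 15 at or above the 90th. These percentiles were not matched for gene length, and in a short window 1 region covers a large share, as in Gsc (12.7%).

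Density by family ranged from 0.620 to 2.67 regions per 10 kb. The distal-less family, with 5 of 6 genes carrying a region, had 11 regions at 2.67 per 10 kb, of which 0 were called in all 6 libraries. Otx and Emx genes stood at 2.66 per 10 kb with 13 regions, and Barhl and Vax genes at 2.46 with 14. Nkx genes had 7 regions at 1.71 per 10 kb, all in Nkx2-2 and Nkx6-2, regulators of the ventral neural tube and of oligodendrocytes. LIM genes had 17 regions at 0.862, Iroquois genes 4 at 0.788 and paired-like genes 6 at 0.620 per 10 kb. Among the caudal and even-skipped relatives, Cdx1 alone had regions, 4 of them.

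Among the other homeobox genes, 58 of 95 (61.1%) had a region, at 1.10 per 10 kb, led by Zfhx3 with 129, Cux1 with 58 and Cux2 with 48. Of the Hox genes 8 of 39 (20.5%) did, with 1 gene, Hoxa9, having a region in all 6 libraries. The Pax genes had one in 8 of 9, and genes for Polycomb group proteins in 28 of 33. Of 10 matched antisense RNA genes that neighbour these homeobox genes, 8 had a region. Of the 140 regions, 15 also lay on another annotated gene, 2 of them on the protein-coding gene Inpp5a beside Nkx6-2 and 13 on noncoding RNA genes alone, among them Nkx2-2os, Msx1os and Dlx6os1. MeDIP regions carry no strand, so overlapping genes cannot be told apart there.

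The highest regions lay in Meis1, Meis2 and Alx4. The Meis1 region (chr11:19013574-19014547, mm10, 4422 bp downstream of the start and also inside the noncoding gene Gm16141) had heights of 68, 79 and 51 untreated and 83, 49 and 41 with KCl. Meis2, at chr2:116021695-116022153, had 53, 60 and 46 untreated and 67, 55 and 30 with KCl. Alx4, a skull and limb regulator, had 54, 59 and 44 untreated and 63, 43 and 28 with KCl at chr2:93662636-93663455. In each of these 3 regions KCl replicate 1 was the highest library and KCl replicate 3 the lowest, and the groups overlapped. Group means were 66.0 ± 14.1 and 57.7 ± 22.3 in Meis1, 53.0 ± 7.0 and 50.7 ± 18.9 in Meis2, and 52.3 ± 7.64 and 44.7 ± 17.6 in Alx4 (untreated and KCl, SD, n = 3 each).

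Among regions called in all 6 libraries, the rest of the 10 highest were 2 regions of Nkx2-2, 2 of Pbx3 and 1 each of Six3, Vax1 and Lhx8. Their mean heights over the 6 libraries ran from 38.0 in Nkx2-2 (chr2:147182665-147183505) to 28.7 in Lhx8 (chr3:154313886-154314266). A further Pbx3 region (chr2:34250994-34251584), not called in KCl replicate 3, had a mean of 29.0 over the other 5 libraries, above that of Lhx8. Six3, a regulator of the anterior forebrain and eye, had 43, 31 and 42 untreated and 44, 32 and 18 with KCl at chr17:85622490-85623159, 1656 bp downstream of its start. Vax1, which patterns the optic stalk and ventral forebrain, had 46, 44 and 26 untreated and 40, 26 and 23 with KCl at chr19:59168166-59168897. The groups overlapped in both. Set against the genome, the 140 regions were of ordinary height, with a median of 13.5 against 13 for all regions. The 25 called in all 6 libraries had a median of 25.3, against 24, and the highest mean was 61.8, against 346 among all regions.

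**Figure D3:**
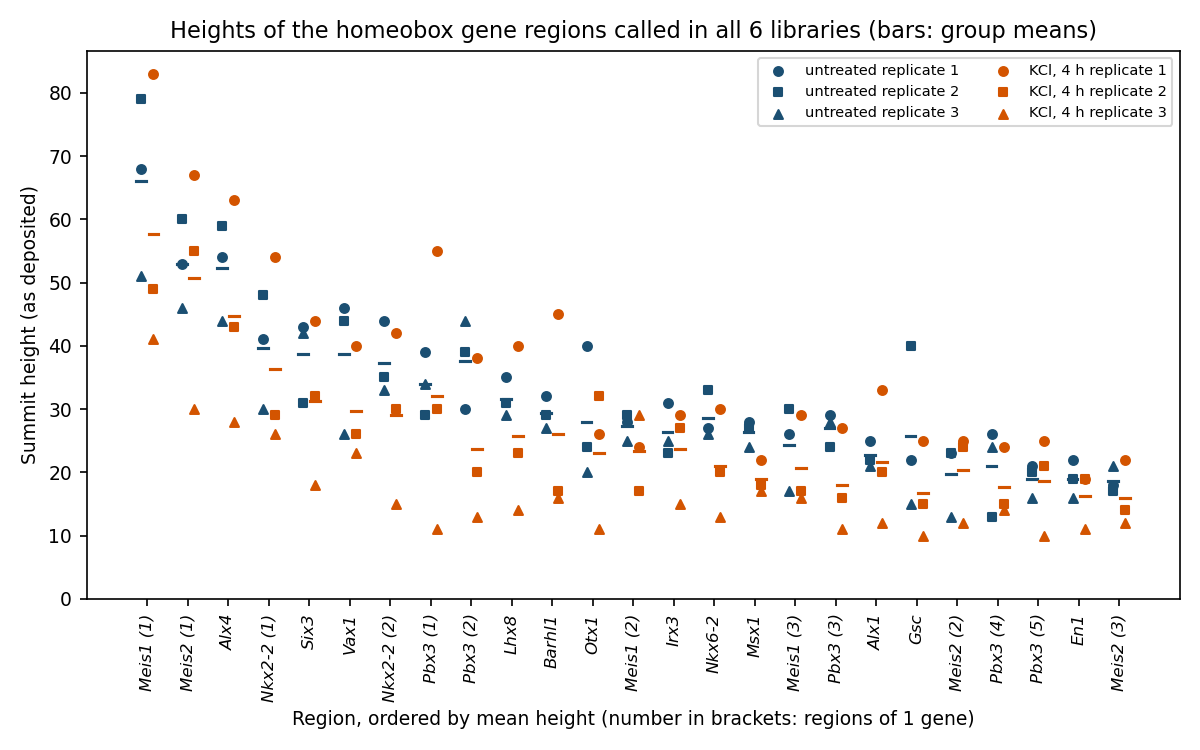
Summit height as deposited (y axis) of the 25 homeobox gene regions called in all 6 libraries (x axis, ordered by mean height), with 1 point per library and a bar for each group mean (n = 3). KCl replicate 3 is the lowest or tied for lowest in 23 of the 25 regions.

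Regions near a gene end or over a start were called in all 6 libraries in 6 genes: Barhl1, Otx1, Nkx2-2, Msx1, Irx3 and Gsc. At Barhl1 the region (chr2:28916544-28917499) covered the promoter printed above, with heights of 32, 29 and 27 untreated and 45, 17 and 16 with KCl. The KCl libraries lay on both sides of the untreated ones, and the means were 29.3 ± 2.52 and 26.0 ± 16.5. At Otx1 the region (chr11:21994502-21996302) was 1801 bp long, the longest of the 140, with heights of 40, 24 and 20 untreated and 26, 32 and 11 with KCl. The next in length were those of En1 (1581 bp) and Lhx3 (1390 bp), and these 3 were the regions of at least 1 kb (2.14%, against 0.614% of all regions).

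The En1 region (chr1:120603750-120605330) began 1263 bp downstream of the annotated start, with heights of 22, 19 and 16 untreated and 19, 19 and 11 with KCl. The Msx1 region (chr5:37821211-37821709), 2876 bp downstream of the start and on the antisense gene Msx1os, had 28, 27 and 24 untreated and 22, 18 and 17 with KCl. All 3 KCl heights of Msx1 were below all 3 untreated heights, at means of 19.0 ± 2.65 and 26.3 ± 2.08 (SD, n = 3 each). Such a separation of heights as deposited was seen in 1 of the 25 regions, and in 4.66% of the 27310 regions called in all 6 libraries. With heights divided by the library median, the groups overlapped at Msx1. Its log2 change after centring each library was -0.20 (limma SE 0.22, unadjusted p = 0.36).

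Irx3, which patterns the neural tube, had heights of 31, 23 and 25 untreated and 29, 27 and 15 with KCl at chr8:91798769-91799722. At Nkx2-2, chr2:147175513-147176180, past the end of the gene, had 44, 35 and 33 untreated and 42, 30 and 15 with KCl. Gsc, a regulator of the embryonic organiser and of craniofacial tissue, had 22, 40 and 15 untreated and 25, 15 and 10 with KCl at chr12:104471273-104471784. The groups overlapped at all 3, and untreated replicate 2 of Gsc lay well above the other 5 libraries.

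KCl was next compared with no treatment, first by how many regions each library called. Untreated libraries called 97, 87 and 67 of the 140 regions, and KCl libraries 100, 54 and 29. These numbers followed each library's total, as untreated libraries called 64.3%, 64.7% and 53.9% of all regions and KCl libraries 69.4%, 45.0% and 25.7%. As a share of each library's intervals, those in homeobox genes made up 0.106 ± 0.0112% in the untreated group and 0.0980 ± 0.0106% in the KCl group (SD over 3 libraries). A two-sided exact permutation test gave p = 0.5, where 3 against 3 libraries cannot go below 0.1. Within replicate numbers the share was lower with KCl in 3 of 3 pairs (differences of -0.00799, -0.0124 and -0.00410 percentage points; two-sided exact sign-flip p = 0.25, the smallest possible). With equal numbers of intervals per library, untreated libraries called 44, 35 and 34 of the regions and KCl libraries 45, 37 and 29. The number was then higher with KCl within replicate numbers 1 and 2 and lower within 3. Of the 17 regions missed by exactly 1 library, 15 were missed by KCl replicate 3 and 2 by KCl replicate 2. Over the genome, 80.0% of such regions were missed by KCl replicate 3.

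**Figure D4:**
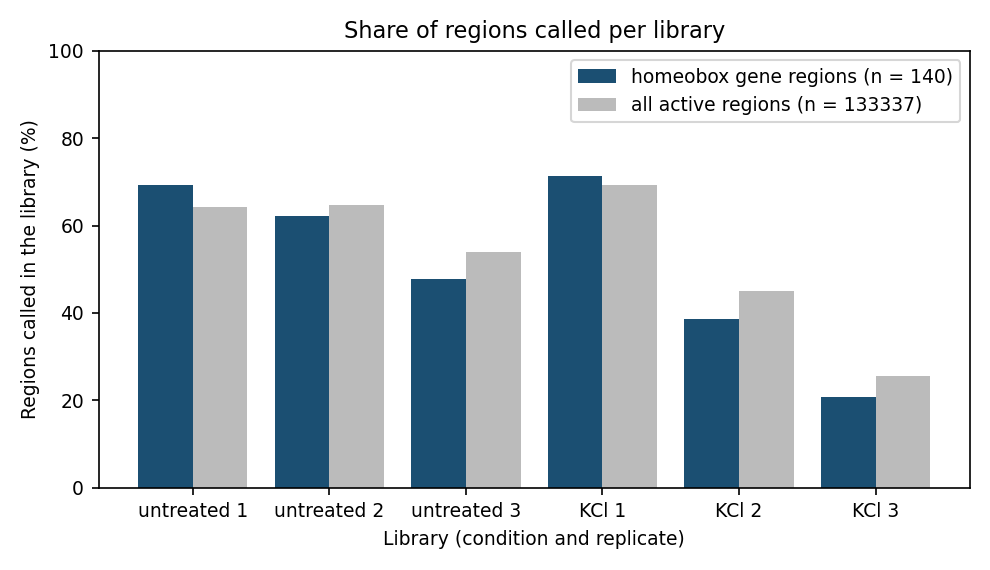
Share of regions called in each library (y axis, %) for the 140 homeobox gene regions and for all 133337 regions (x axis, library by condition and replicate). KCl replicate 3 called 20.7% of the homeobox regions and 25.7% of all regions, the lowest of the 6 libraries in both.

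Around gene starts, the number of the 36 genes with a region 1 to 3 kb downstream was 13, 13 and 11 in the untreated libraries and 13, 9 and 8 with KCl. The shares were 34.3 ± 3.21% and 27.8 ± 7.35% (SD over 3 libraries; two-sided exact permutation p = 0.4). Over protein-coding genes the same shares were 9.92 ± 0.999% and 7.87 ± 2.97%. In each library the share of homeobox genes was thus above that of protein-coding genes, at 22.2% against 4.91% in KCl replicate 3, which called least. Barhl1 was the 1 gene with a region within 1 kb of the start in each library.

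Heights did not separate the groups in a test over libraries, although their centred median was lower with KCl within each replicate number. Median heights over the 25 regions called in all 6 libraries were 30, 29 and 26 untreated and 30, 21 and 14 with KCl. After subtracting each library's median on the log2(height + 1) scale, the median of these regions was 0.20, 0.00 and 0.11 untreated and 0.05, -0.06 and -0.18 with KCl. The means were 0.10 ± 0.10 and -0.07 ± 0.11 (SD over 3 libraries), and their difference of -0.17 had a two-sided exact permutation p of 0.2. Within replicate numbers 1, 2 and 3 the difference was -0.15, -0.06 and -0.29, lower with KCl in 3 of 3 pairs. The two-sided exact sign-flip test of the pairs gave p = 0.25, the smallest that 3 pairs allow, so this test could not reach 0.05. With the mean over regions in place of the median, replicate number 2 was higher with KCl (0.09 against 0.07 untreated). The difference of the group means was then -0.06 (two-sided exact permutation p = 0.6). As deposited, the medians of replicate number 1 were equal, at 30. KCl replicate 3 was the lowest library, or tied for lowest, in 23 of the 25 regions, and in 79.6% of all regions called in all 6.

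Region by region, the change was tested with limma on centred log2(height + 1) values over the 20537 regions called in all 6 libraries with a mean height of at least 18.7. At an adjusted p under 0.05, 0 of the 23 homeobox regions tested, in 15 genes, were higher with KCl (0% of all tested regions) and 0 were lower (0%). At an unadjusted p under 0.05, 0 were higher (1.97% of all tested) and 1 was lower (1.67% of all tested). Log2 changes of the 23 regions ran from -0.51 to 0.28 with SEs of 0.14 to 0.26. Their median was -0.07, with 10 above 0 and 13 below, against 0.01 over all tested regions. Each had an adjusted p of 1.00 in limma. The remaining 2 regions called in all 6 libraries, in En1 and Meis2, were under the height limit. On simulated heights the same fit recovered 19.4% of the 62 tested regions changed by 1.5-fold and 71.2% of the 52 changed by 2-fold. It also called 5 unchanged regions, with 20176 tested. Changed regions that dropped out of the test were not counted. Beyond counting noise, the simulated spread was set below that between the untreated libraries, and the KCl libraries were not used for it. For these reasons the recovered shares may be too high. Single regions changed by 1.5-fold or less would mostly have been missed.

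**Figure D5:**
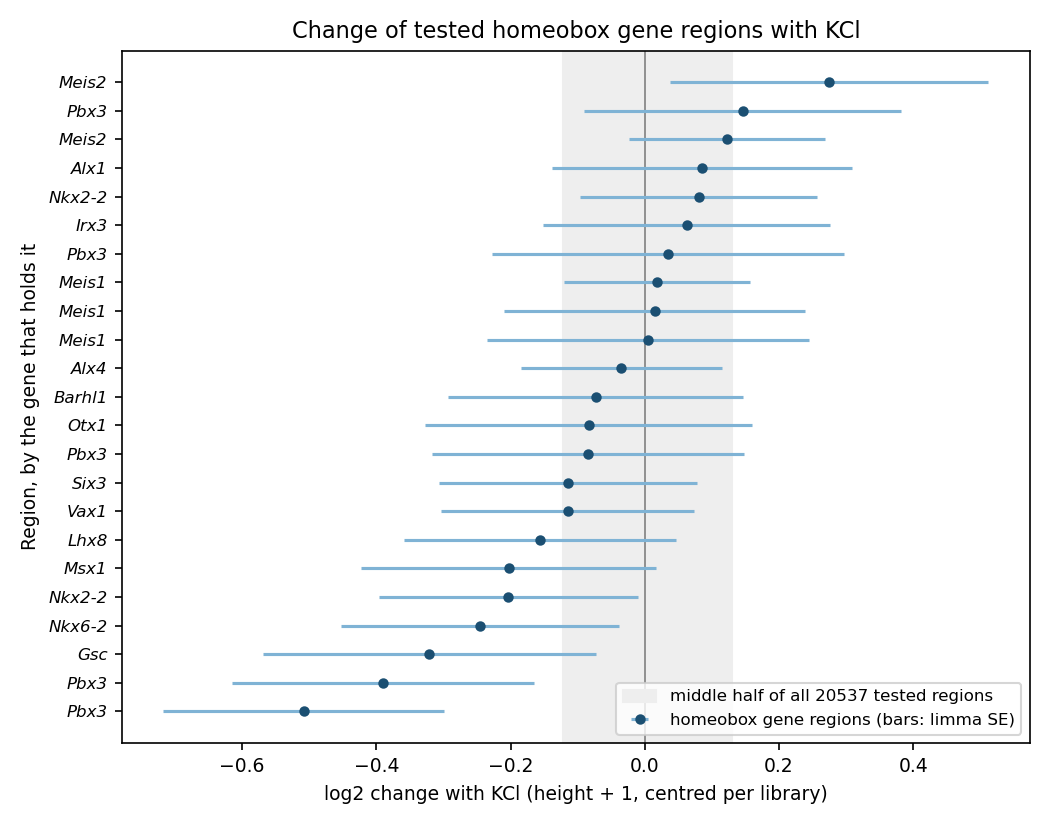
Log2 change of centred height + 1 with KCl (x axis) for the 23 tested homeobox gene regions (y axis, by gene), with limma standard errors as bars and the interquartile range of all 20537 tested regions in grey. Changes run from -0.51 in a Pbx3 region to 0.28 in a Meis2 region, and none passed the adjusted threshold.

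The 5 lowest p-values on the lower side belonged to 2 regions of Pbx3 and 1 each of Gsc, Nkx6-2 and Nkx2-2. In Pbx3, chr2:34237052-34237462 had heights of 30, 39 and 44 untreated and 38, 20 and 13 with KCl. The groups overlapped through KCl replicate 1, and the log2 change was -0.51 (limma SE 0.21, unadjusted p = 0.0201, adjusted p = 1.00), from -0.69 to -0.31 with single libraries left out. The other Pbx3 region, chr2:34288496-34288910, had 29, 24 and 28 untreated and 27, 16 and 11 with KCl, a change of -0.39 (SE 0.23). For the Gsc and Nkx2-2 regions past or near the gene end, given above, the changes were -0.32 (SE 0.25) and -0.20 (SE 0.19). Nkx6-2, a regulator of oligodendrocyte maturation, had 27, 33 and 26 untreated and 30, 20 and 13 with KCl at chr7:139580627-139581257, 1540 bp downstream of its start, a change of -0.25 (SE 0.21). Over library medians its 3 KCl values were all below its 3 untreated values, as in 2.83% of the 27310 regions, and 0 homeobox regions were separated the other way (5.75%).

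The 5 lowest p-values on the higher side were in 2 regions of Meis2 and 1 each of Pbx3, Nkx2-2 and Alx1. The Meis2 region at chr2:116039574-116040043 had 23, 23 and 13 untreated and 25, 24 and 12 with KCl, a log2 change of 0.28 (SE 0.24). That of the higher Meis2 region given above was 0.12 (SE 0.15). Pbx3, at chr2:34261408-34261887, had 21, 20 and 16 untreated and 25, 21 and 10 with KCl, a change of 0.15 (SE 0.24). Alx1, a craniofacial regulator, had 25, 22 and 21 untreated and 33, 20 and 12 with KCl at chr10:103009117-103009645, a change of 0.09 (SE 0.22), and the Nkx2-2 region within the gene had one of 0.08 (SE 0.18). In all 5 the groups overlapped. With single libraries left out, the changes on the higher side ran from 0.09 to 0.41 and 0.08 to 0.26 in the Meis2 regions, from 0.07 to 0.32 in Pbx3, and across 0 in Alx1 and Nkx2-2. On the lower side the Nkx2-2 region past the gene ran from -0.33 to -0.0038, Gsc from -0.56 to -0.22, the second Pbx3 region from -0.55 to -0.29 and Nkx6-2 from -0.32 to -0.15. The Gsc range lacks the fit without untreated replicate 2, its highest library. In that fit the region fell under the height limit and was not tested. For the same reason the Pbx3 range on the higher side lacks the fit without KCl replicate 1.

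Without KCl replicate 3, 35 homeobox regions could be tested, and 0 were higher or lower at an adjusted p under 0.05 in limma, with 2 higher (2.77% of the 31004 regions tested) and 0 lower (1.43%) at an unadjusted p under 0.05. Heights as deposited, not centred, were lower with KCl in 22 of the 23 regions, as in 90.6% of all tested regions, with medians of -0.33 and -0.25. Among related lists, 78 regions of other homeobox genes, 14 of Pax genes, 2 of Hox genes and 25 of Polycomb group genes were tested, and 0 passed in either direction. Their median log2 changes were -0.01, 0.01, -0.33 and -0.04. The 4 tested regions of antisense genes also gave 0, as did the 11, 4, 8, 6 and 7 tested regions of neuron, astrocyte, oligodendrocyte, microglia, and endothelial and mesenchymal marker genes.

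Regions called in 1 condition lie outside that test. A single region, in Lhx9, a gonad and forebrain regulator, was called in all 3 untreated libraries and in no KCl library, at heights of 13, 13 and 10 (chr1:138846826-138847269). Over the genome 1.01% of regions had this pattern, and the reverse, seen in 0 homeobox regions, occurred in 0.0367%. When each library was reduced to its 34834 highest intervals, 0 homeobox regions were called only without KCl, against 0.192% of all regions. Without KCl replicate 1 there were 9, where the share over all regions was 5.23%.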

How the data were processed

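Libraries of 3 untreated and 3 KCl-treated cultures, grouped by their titles, were analysed. Library construction and analysis were done by a company (labels' protocols). The submitters' processing notes list BWA, SICER and mm10 with no version. Read filters and totals were not given in the sources used here. Per the file headers, the deposited file holds a summit height and an interval for each call of a library, and the active regions over all libraries. The authors' heights were used as a score of enrichment. They are whole numbers of at least 6 with no stated scaling between libraries, and since depth is unknown they carry no counting error.

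Regions were joined to gene positions and promoter entries of RefSeq GRCm38.p6, which shares its coordinates with mm10. The genes and gene lists were chosen with earlier results of these data known. All genes are counted, and those given in full are the 10 highest regions (among those called in all 6 libraries), regions at gene ends in all 6 libraries, the genes with the most and densest regions, the 5 lowest p-values in each direction and regions called in 1 condition. Heights were compared with limma 3.58.1 (R 4.3.3) on log2(height + 1), centred on each library's median, with an intensity trend and Benjamini-Hochberg adjustment. Changes on this scale are understated where heights are low. Regions called in all 6 libraries entered unless their mean height was under the 25th percentile. Values per library were compared by exact permutation tests in scipy 1.17.1. The fit was tested on simulated data with 200 changed regions. Libraries with the same replicate number deviated together from their group means (correlations of 0.11, 0.11 and 0.15, against -0.09 to -0.02 between different numbers). By a limit of 0.1 the numbers pair the libraries, and what they mark is not stated in the labels.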

Additional observations from a re-analysis of the deposited data

How the results depend on the processing

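Counting only regions called in all 6 libraries left 25 of the 140 regions, 16 of the 36 genes, 0.206 regions per 10 kb in place of 1.15, and 8 of the 16 genes with a region 1 to 3 kb downstream of the start. With equal numbers of intervals per library 59 regions in 26 genes remained, and the 1 region called only without KCl became 0. Leaving out single libraries, that count ran from 1 to 9, the 9 being without KCl replicate 1, where the share over all regions rose from 1.01% to 5.23%. With any promoter entry of a gene, 3 genes in place of 1 had a region within 1 kb of the start. The median log2 change of the tested regions was -0.0730 and ran from -0.135 to 0.0298 with single libraries left out, turning positive without untreated replicate 1 (0.0246), KCl replicate 2 (0.00750) or KCl replicate 3 (0.0298). Over all regions tested in these fits the medians were 0.0090, 0.0439 and 0.0392, so the homeobox median was above that of all regions only without untreated replicate 1. With single libraries left out, the log2 change of the Nkx2-2 region within the gene ran from -0.0275 to 0.253 and that of the Alx1 region from -0.0526 to 0.235. The cause was not tested. A replicate block gave 0 calls, with a lowest adjusted p of 0.980 among the homeobox regions, and changed no call. For values per library, a replicate block added after the data were seen kept the differences of -0.00815 in interval share and -0.169 in height, with exact sign-flip p = 0.25 in both. The number of calls at an adjusted p under 0.05 was 0 under every scaling, pseudocount, filter, block and left-out library that was run. Unknown depth limits what an uncalled region means: it may hold 5mC below the calling limit of that library.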

Other observations

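Some regions near a start lay outside the gene windows of 1 kb, and so outside the 140, although they entered the shares around starts. Emx1, a cortical regulator with 1 region in its window, had 2 regions 1 to 3 kb upstream of its start, 1 of them called in all 6 libraries. Lhx2, with no region in its window, had 1 region 1093 bp upstream, called in 2 libraries. With windows of 5 kb on either side, 178 regions were counted in 40 of the 52 genes (76.9%, against 73.3% of protein-coding genes).

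Along the gene, the 81 regions of genes with a known strand lay at all positions, with 16, 19, 17 and 21 in 4 equal parts of the gene from start to end, 1 before it and 7 after it. In genes under 50 kb, which held 59 of them, the 4 parts held 13.6%, 30.5%, 20.3% and 23.7%. Over protein-coding genes of that length the shares were 16.8%, 21.0%, 25.1% and 29.2%. The difference was not tested.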
